A study of Mus musculus with 4 samples.

Results

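Semaphorins, slits, netrins and repulsive guidance molecules, with their neuropilin, plexin, Robo, DCC and UNC5 receptors, were examined in a mouse glioma-initiating cell line in which Eva1 was knocked down. The genes were chosen by the symbol of the probe in the platform annotation, as all symbols of the types Sema3 to Sema7, Plxn, Nrp1, Nrp2, Slit1 to Slit3, Robo1 to Robo4, Ntn, Unc5, Dcc, Rgma and Rgmb. This gave 47 probes for 47 genes out of 23473 probes. Nrp2, Plxnc1 and Rgma were not analysed here. Unc50, a Golgi membrane protein gene, and Unc5cl, which encodes a protein with a death domain, matched by their letters and are not guidance receptors. They are kept in the counts and named where they appear.

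The Eva1 shRNA group was the line NSCL61 carrying a short hairpin RNA against Eva1, and the control group was labelled as NSCL61 alone, while the series title speaks of a control hairpin. Both groups were the same line, which is known to have been made from p53-deficient mouse neural stem cells with an activated HRas, and the labels give the source as C57BL6 brain at P0. The transfected cells were selected with hygromycin, for which the growth and treatment protocols give different lengths of time. Each group had 2 arrays. The labels do not tell whether arrays of the same group stand for separate cultures. The p-values below therefore reflect the spread among these 4 samples alone, and that spread may be technical. The current symbol of Eva1 is Mpzl2, and it encodes an adhesion protein of the immunoglobulin superfamily.

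Semaphorins are secreted or membrane-bound cues that were first known for repelling growing axons. They bind plexins, large receptors that act on small GTPases and so on the actin cytoskeleton, and most class 3 semaphorins need a neuropilin as the ligand-binding coreceptor. Slits signal through Robo receptors and netrins through DCC and UNC5 receptors, and the same cues steer migrating neural precursors, blood vessels and glioma cells.

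The arrays were 1-colour 3D-Gene mouse chips with intensities scaled by the authors to a median near 25 on each array. Values were present for 21842 and 21513 probes on the Eva1 shRNA arrays and for 20662 and 20934 probes on the control arrays, and the other cells were blank. The target Mpzl2 had intensities of 8.20 and 6.21 on the Eva1 shRNA arrays, against 55.0 and 54.4 on the control arrays, and its log2 change was -3.12 (SE 0.17, limma, adjusted p = 0.00172). The neural stem cell marker Nes had 434.8 and 429.9 units in Eva1 shRNA cells and 532.5 and 537.1 units in control cells. Of the 8 neural stem cell markers with a probe, 5 lay above an intensity of 25 on each of the 4 arrays, and Fabp7 was the 1 of 7 tested that passed, with a log2 change of -1.15 (adjusted p = 0.00755). None of the 6 astrocyte or the 5 endothelial markers exceeded 25 on any array. The endothelial markers Pecam1, Cdh5, Cldn5 and Tek did not exceed 4.46 and were each blank on 1 or more arrays. Kdr, the other endothelial marker, had 13.8 and 16.8 units in Eva1 shRNA cells and 15.0 and 9.36 units in control cells. Summed astrocyte markers gave 40.6 and 34.9 in Eva1 shRNA cells and 30.6 and 31.3 in control cells, and endothelial markers 17.9 and 23.7 in Eva1 shRNA cells and 20.2 and 21.6 in control cells. The summed intensity of 6 fibroblast and mural cell markers was 1644 and 1417 on the Eva1 shRNA arrays and 801 and 904 on the control arrays. Of the 6, Acta2 rose (log2 change 6.22), Rgs5 fell (-2.53) and 4 did not pass. Summed neuron markers (5 probes) gave 100.7 and 116.6 in Eva1 shRNA cells and 72.1 and 73.1 in control cells, with none of the 5 passing. Of these, Tubb3 had 50.4 and 71.2 units in Eva1 shRNA cells and 29.0 and 29.5 units in control cells. Dcx, Map2 and Syt1 had negative log2 changes, and the median of the 5 was -0.11. Oligodendrocyte markers (4) gave 132.2 and 134.5 in Eva1 shRNA cells and 169.6 and 165.4 in control cells. Of these Cnp fell (-1.06). Mag, Mbp and Sox10 did not pass, with log2 changes of -0.0034, -0.21 and -0.052. Microglial markers (6) gave 98.5 and 78.0 in Eva1 shRNA cells and 71.3 and 71.4 in control cells, and none of the 4 tested passed. The part of such cells in the results below was not tested. In RNA from whole cultures, fewer cells that make a transcript and less transcript per cell cannot be told apart.

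Levels are given as scaled intensity on each array. Log2 changes are Eva1 shRNA minus control after quantile normalization, with limma's moderated test (two-sided) and Benjamini-Hochberg adjustment over the 19199 probes with a value on all 4 arrays. A gene is said to have risen or fallen where its adjusted p was under 0.05. By that threshold 21.5% of all tested probes were called, 10.6% higher and 10.9% lower. Of the 40 guidance genes tested, 14 were called (35.0%), with 5 higher (12.5%) and 9 lower (22.5%). The median log2 change of the 40 genes was -0.26, against -0.00038 over all probes tested. Under the authors' scaling alone, which moves the median of all probes to 0.19, the 40 genes gave 6 higher and 6 lower calls and a median of -0.059, while all probes gave 3212 higher and 1426 lower calls. With 1 array left out, fewer of the 40 genes and also fewer of all probes were called, and the ranges of both are given in the closing section. After normalization the groups did not overlap for 30 of the 40 genes (75.0%), and this held for 64.8% of all probes tested.

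**Figure D1:**
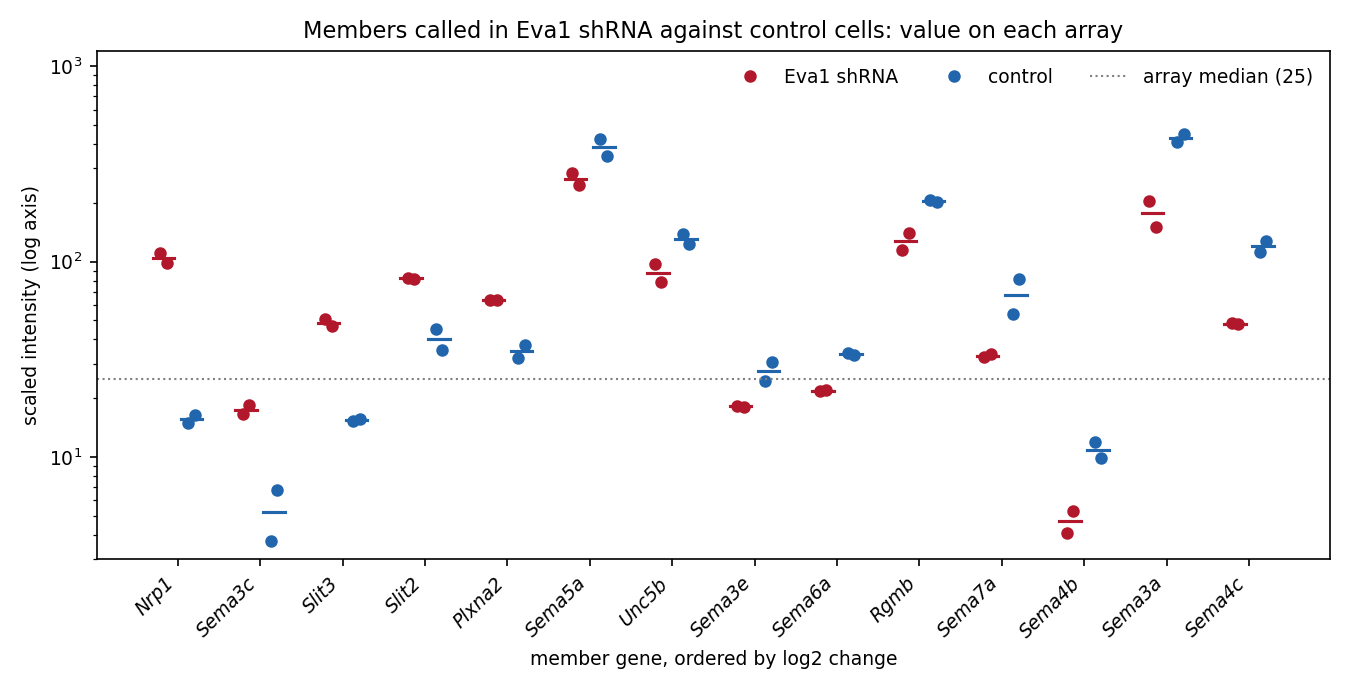
Scaled intensity on each array (log axis) of the 14 called genes, ordered by log2 change, with Eva1 shRNA arrays on the left and control arrays on the right of each pair. Points are arrays, short bars are group means of 2 arrays and the dotted line is the array median of 25. Nrp1, Sema3c, Slit3, Slit2 and Plxna2 were higher in the Eva1 shRNA cells, and the other 9 genes were lower.

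Semaphorins made up 8 of the 14 called genes and 19 of the 40 tested, and 7 of the 8 were lower. Under the authors' scaling they made up 6 of the 12 called genes, of which 5 were lower. Of the 20 semaphorin genes, 19 were tested and 11 did not pass. In limma's test 7 fell (36.8%, against 10.9% of all probes) and 1 rose (5.26%, against 10.6%). The median log2 change of the 19 was -0.70. The sign was negative for 14 of them, while over all probes 50.1% of the changes were negative.

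Among the 7 secreted class 3 semaphorins, Sema3a and Sema3e fell (28.6%, against 10.9% of all probes) and Sema3c rose (14.3%, against 10.6%). Sema3a, the founding repellent cue that signals through Nrp1 and class A plexins, had 204.6 and 150.7 units in Eva1 shRNA cells, against 408.7 and 450.8 units in control cells. The 2 groups stood well apart. The log2 change was -1.47 (SE 0.19, adjusted p = 0.00812), a 2.77-fold lower level. Sema3c, another neuropilin ligand, had 16.6 and 18.4 units in Eva1 shRNA cells and 3.73 and 6.76 units in control cells. Its control values lay near those of probes that were blank on another array, whose percentile 95 was 3.95 and 4.33 on the control arrays. Its log2 change was 1.59 (SE 0.28, adjusted p = 0.0178), and it was 0.58 with 16 intensity units added before log2, a step that damps the changes of dim probes. Sema3e, which binds Plxnd1 without a neuropilin, had 18.3 and 18.0 units in Eva1 shRNA cells and 24.6 and 30.7 units in control cells. Its log2 change was -0.81 (SE 0.16, adjusted p = 0.0265), and it was -0.47 with 16 units added. The call was lost under the authors' scaling (adjusted p = 0.0623).

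The 4 other class 3 genes did not pass. Sema3g, a ligand of Nrp2, had 3.81 and 7.75 units in Eva1 shRNA cells and 13.2 and 9.72 units in control cells. The groups did not overlap, but the spread within each was wide and the log2 change of -1.28 had a standard error of 0.40 (adjusted p = 0.0787). It was -0.73 when Eva1 shRNA array 1 was dropped and -1.82, a call, when Eva1 shRNA array 2 was (adjusted p = 0.0456). Sema3g also passed with eBayes trend (adjusted p = 0.0109) and with 16 units added (log2 change -0.41, adjusted p = 0.0379). Sema3b had a log2 change of -0.52, Sema3d of 0.15 and Sema3f of 0.03. Sema3b and Sema3d did not exceed 5.93 units on any array.

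Of the 5 membrane-bound class 4 semaphorins tested, 2 fell in limma's test (40%, against 10.9% of all probes) and 0 rose (against 10.6%). At an unadjusted p under 0.05 in the same test, 3 were lower and 0 higher. No share of all probes is given at that threshold, so these counts cannot be read as particular to class 4. Sema4c, a ligand of Plxnb2, had 48.6 and 47.8 units in Eva1 shRNA cells, against 112.1 and 127.7 units in control cells. It was 2.83-fold lower, with a log2 change of -1.50 (SE 0.15, adjusted p = 0.00456). Sema4b had 4.09 and 5.30 units in Eva1 shRNA cells and 11.9 and 9.92 units in control cells. Its log2 change was -1.44 (SE 0.22, adjusted p = 0.0132), and it was -0.45 with 16 units added. Both groups lay below the array median.

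The other 3 class 4 genes tested did not pass. Sema4a had 146.6 and 138.8 units in Eva1 shRNA cells and 167.4 and 136.8 units in control cells, values that overlapped as deposited. Sema4g had 4.38 and 1.57 units in Eva1 shRNA cells and 5.36 and 6.89 units in control cells, and its log2 change was -1.37 (SE 0.43, adjusted p = 0.0787). It was -1.96, a call, when Eva1 shRNA array 1 was dropped (adjusted p = 0.0294) and -0.72 when Eva1 shRNA array 2 was, and it passed with eBayes trend (adjusted p = 0.0228). For Sema4f the values were 2.26 and 2.804 units in Eva1 shRNA cells and 3.02 and 8.98 units in control cells, and its log2 change was -1.22 (SE 0.49, adjusted p = 0.138). Its control arrays lay far apart, and the change was -1.98, a call, when control array 1 was dropped (adjusted p = 0.0335) and -0.48 when control array 2 was. With 16 units added it was -0.27 for Sema4f and -0.27 for Sema4g. Sema4d, the ligand of Plxnb1, was blank on 3 arrays and had 1.66 units on Eva1 shRNA array 2, so no change was computed.

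In classes 5 to 7, Sema5a, Sema6a and Sema7a fell (42.9%, against 10.9% of all probes) and 4 genes did not pass. Sema7a, a membrane-anchored semaphorin that binds Plxnc1 and integrins with a beta-1 chain, had 32.4 and 33.7 units in Eva1 shRNA cells and 53.7 and 81.2 units in control cells. The Eva1 shRNA arrays lay close together and the control arrays far apart. The log2 change was -1.20 (SE 0.23, adjusted p = 0.0225). Sema6a, a transmembrane ligand of Plxna2 and Plxna4, had 21.7 and 22.0 units in Eva1 shRNA cells and 34.1 and 33.3 units in control cells. It changed by -0.83 on the log2 scale (SE 0.14, adjusted p = 0.0178), or by -0.52 with 16 units added.

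Sema5a had 284.9 and 247.1 units in Eva1 shRNA cells and 422.2 and 347.7 units in control cells. Its log2 change of -0.70 (SE 0.17, adjusted p = 0.0401) was the smallest in size among the lower calls, and it lost the call under the authors' scaling (adjusted p = 0.0874). Sema5b, Sema6b, Sema6c and Sema6d had log2 changes of 0.35, -0.18, 0.11 and -0.46. Their intensities did not exceed 20.2 on any array.

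**Figure D2:**
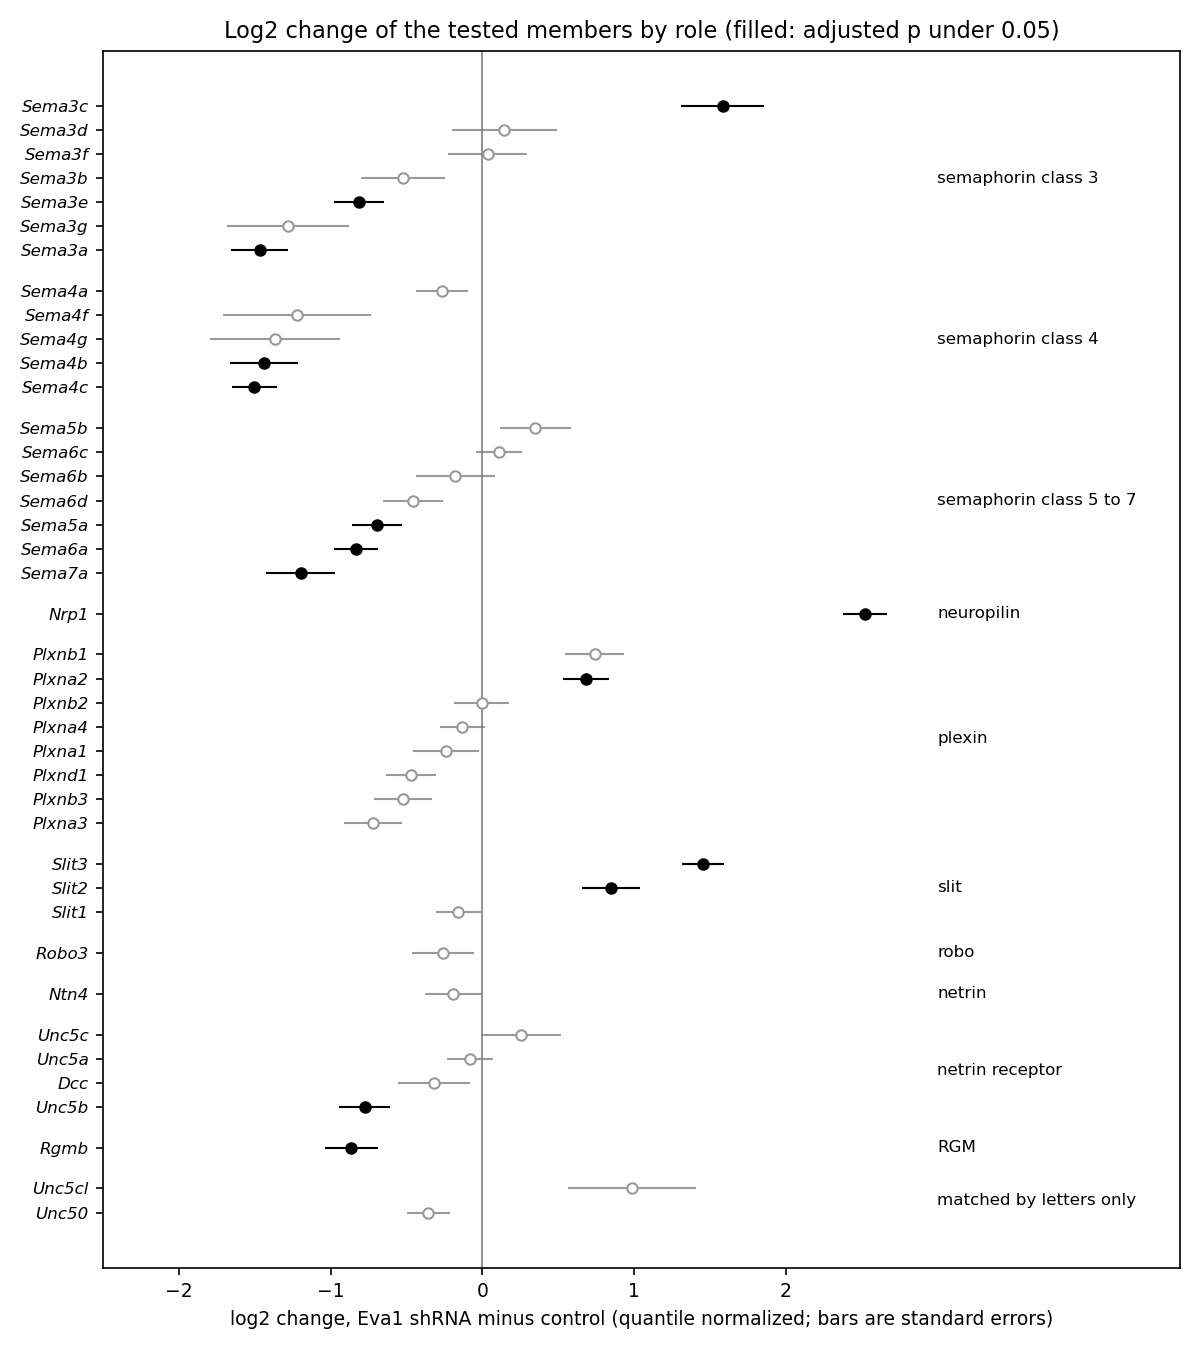
Log2 change (Eva1 shRNA minus control, quantile normalized) of the 40 tested genes on the horizontal axis, by role, with standard errors from limma. Filled points had adjusted p under 0.05. The 8 called semaphorins lay below 0 except Sema3c, and Nrp1 had the largest change, 2.52.

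Among the receptors, Nrp1 had the largest change. Nrp1 encodes neuropilin-1, the ligand-binding coreceptor for class 3 semaphorins and for VEGF-A. It had 110.4 and 97.9 units in Eva1 shRNA cells, against 15.0 and 16.4 units in control cells. The control values lay below the array median and the Eva1 shRNA values well above it. Nrp1 was 5.75-fold higher, with a log2 change of 2.52 (SE 0.14, adjusted p = 0.00172), or 1.78 with 16 units added, and it was the rise of rank 97 among the 19199 probes.

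Of the 8 plexins, 1 rose (12.5%, against 10.6% of all probes) and 7 did not pass. Plxna2, a coreceptor with neuropilins and a receptor for Sema6a, had 64.0 and 63.6 units in Eva1 shRNA cells and 32.1 and 37.6 units in control cells, a log2 change of 0.68 (SE 0.15, adjusted p = 0.0318). The groups did not overlap. Plxnb1 and Plxna3 stood just outside the threshold in opposite directions. Plxnb1 had 60.1 and 46.2 units in Eva1 shRNA cells and 24.5 and 31.1 units in control cells, with a log2 change of 0.74 (SE 0.19, adjusted p = 0.0506). Plxna3 had 36.9 and 26.0 units in Eva1 shRNA cells and 44.5 and 44.5 units in control cells, with a log2 change of -0.72 (SE 0.19, adjusted p = 0.0533). Plxnb1 passed under 5 of 12 processing alternatives and Plxna3 under 4. Both passed when 1 probe per gene symbol was tested (adjusted p = 0.0405 for Plxnb1 and 0.0429 for Plxna3). Under the authors' scaling Plxnb1 passed (adjusted p = 0.0353) and Plxna3 did not (0.131). With blank cells set to the lowest value of the array, neither passed (0.0857 for Plxnb1 and 0.0895 for Plxna3).

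The main plexin receptors of Sema4c and Sema3e did not pass the test. Plxnb2, the receptor of Sema4c, had 238.9 and 244.6 units in Eva1 shRNA cells and 188.3 and 244.5 units in control cells, overlapping values with a log2 change of -0.0047 (SE 0.18). Plxnd1, the receptor of Sema3e, had 122.0 and 96.9 units in Eva1 shRNA cells and 132.6 and 132.4 units in control cells, with a log2 change of -0.47 (SE 0.16, adjusted p = 0.101). Plxnb3 had a log2 change of -0.52, Plxna1 of -0.24 and Plxna4 of -0.13.

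Of the 3 slits, Slit2 and Slit3 rose (66.7%, against 10.6% of all probes) and Slit1 did not pass. Slit3, a secreted ligand of Robo receptors, had 50.9 and 46.6 units in Eva1 shRNA cells, against 15.2 and 15.7 units in control cells. It was 2.74-fold higher (log2 change 1.46, SE 0.14, adjusted p = 0.00431), or 0.92 on the log2 scale with 16 units added. Slit2 had 82.2 and 81.8 units in Eva1 shRNA cells and 45.2 and 35.1 units in control cells. Its log2 change was 0.85 (SE 0.19, adjusted p = 0.0334). Slit1 did not exceed 3.36 units on any array and had a log2 change of -0.16.

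The Robo probes were dim or blank. Robo1 and Robo2, the main slit receptors of the nervous system, gave no testable value. Robo1 had 1.79 units on control array 2 and was blank on the other 3 arrays. Robo2 had 1.25 and 2.30 units in Eva1 shRNA cells and was blank in control cells, and Robo4, known from endothelial cells, had 2.67 and 1.89 units in Eva1 shRNA cells and was also blank in control cells. The lowest filled values of the arrays lay between 1.19 and 1.44, so these readings were near the lower end of the scale. Robo3, which acts in axons that cross the midline, had 10.7 and 9.47 units in Eva1 shRNA cells and 8.31 and 12.4 units in control cells, which overlapped, and its log2 change was -0.26 (adjusted p = 0.407).

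Netrins and most of their receptors were also dim. Ntn1 had 2.16 and 2.64 units in Eva1 shRNA cells and was blank in control cells. Ntn2l, now named Ntn3, had 2.58 and 3.70 units in Eva1 shRNA cells and 3.10 units on control array 1, and was blank on control array 2. Ntn4, a netrin that binds laminins, had 20.6 and 14.8 units in Eva1 shRNA cells and 16.4 and 18.0 units in control cells, which overlapped, and its log2 change was -0.19 (adjusted p = 0.508).

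Unc5b, a netrin receptor that is also known from endothelial cells, was the 1 of 4 tested netrin receptors that changed (25%, against 21.5% of all probes). It had 97.4 and 78.2 units in Eva1 shRNA cells and 138.5 and 122.4 units in control cells, a log2 change of -0.78 (SE 0.17, adjusted p = 0.0323). The call was lost under the authors' scaling (adjusted p = 0.0747). Dcc had between 2.66 and 4.41 units and Unc5a between 4.79 and 5.30 units over the 4 arrays, with log2 changes of -0.32 and -0.08. Unc5c had a log2 change of 0.26, and Unc5d had 1.27 units on Eva1 shRNA array 1 and 4.31 units on control array 1 and was blank on the other arrays.

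Rgmb, a membrane-anchored ligand of neogenin and a coreceptor for bone morphogenetic proteins, fell. It had 115.3 and 140.9 units in Eva1 shRNA cells and 207.2 and 202.9 units in control cells, with a log2 change of -0.86 (SE 0.18, adjusted p = 0.0269). Of the 2 genes matched by letters, Unc50 had a log2 change of -0.36 (adjusted p = 0.136) and Unc5cl of 0.99 (adjusted p = 0.16). Unc5cl had no more than 5.46 units on any array.

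**Figure D3:**
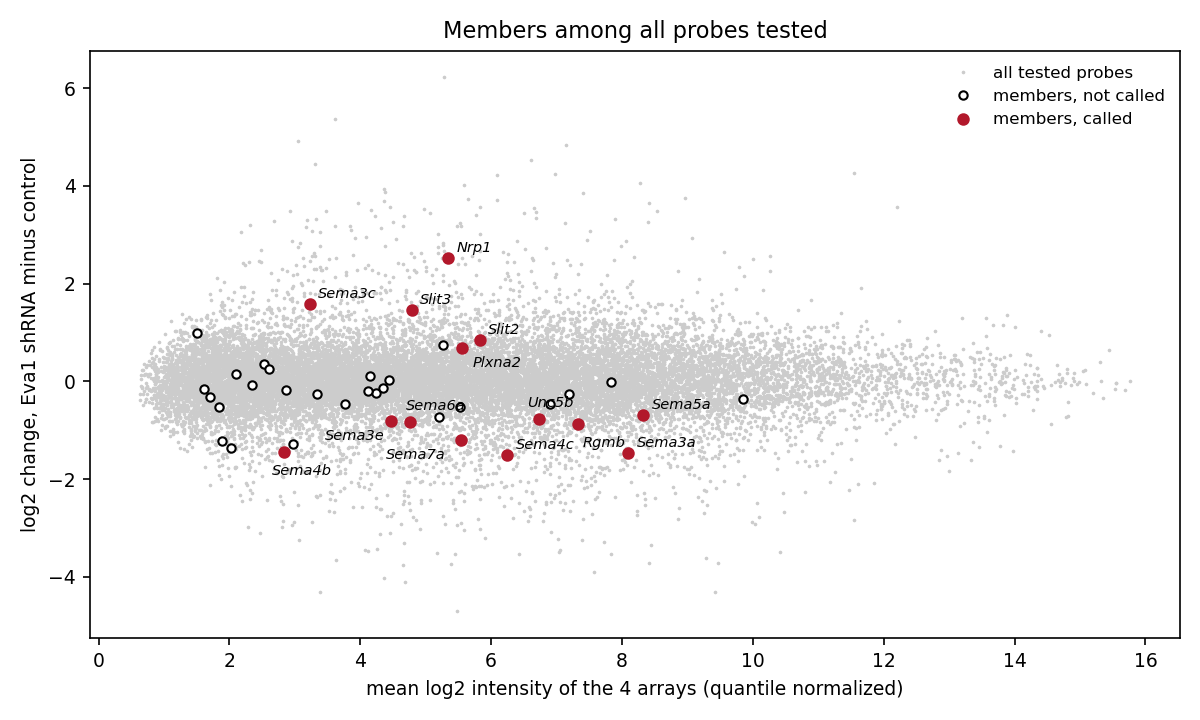
Log2 change (Eva1 shRNA minus control) against mean log2 intensity of the 4 arrays, both quantile normalized, for the 19199 tested probes (grey), the 26 guidance genes that did not pass (open) and the 14 that passed (red, named). Sema3c and Sema4b stood at the dim end, and Nrp1 had the largest change of the 40 genes.

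Nrp1, Slit3, Sema3a and Sema4c kept their call under all 12 alternatives, and the other 10 called genes lost it under 1 or more. With 1 array left out, the highest adjusted p was 0.0234 for Nrp1, 0.0412 for Slit3, 0.0479 for Sema3a and 0.0421 for Sema4c. Without Eva1 shRNA array 1 it reached 0.0731 for Sema4b, 0.113 for Sema6a, 0.115 for Sema7a, 0.138 for Sema3e and 0.139 for Rgmb. Without Eva1 shRNA array 2 it reached 0.0934 for Sema3c, 0.149 for Slit2, 0.151 for Plxna2, 0.16 for Unc5b and 0.184 for Sema5a. The direction of the 14 genes was the same in every alternative.

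**Figure D4:**
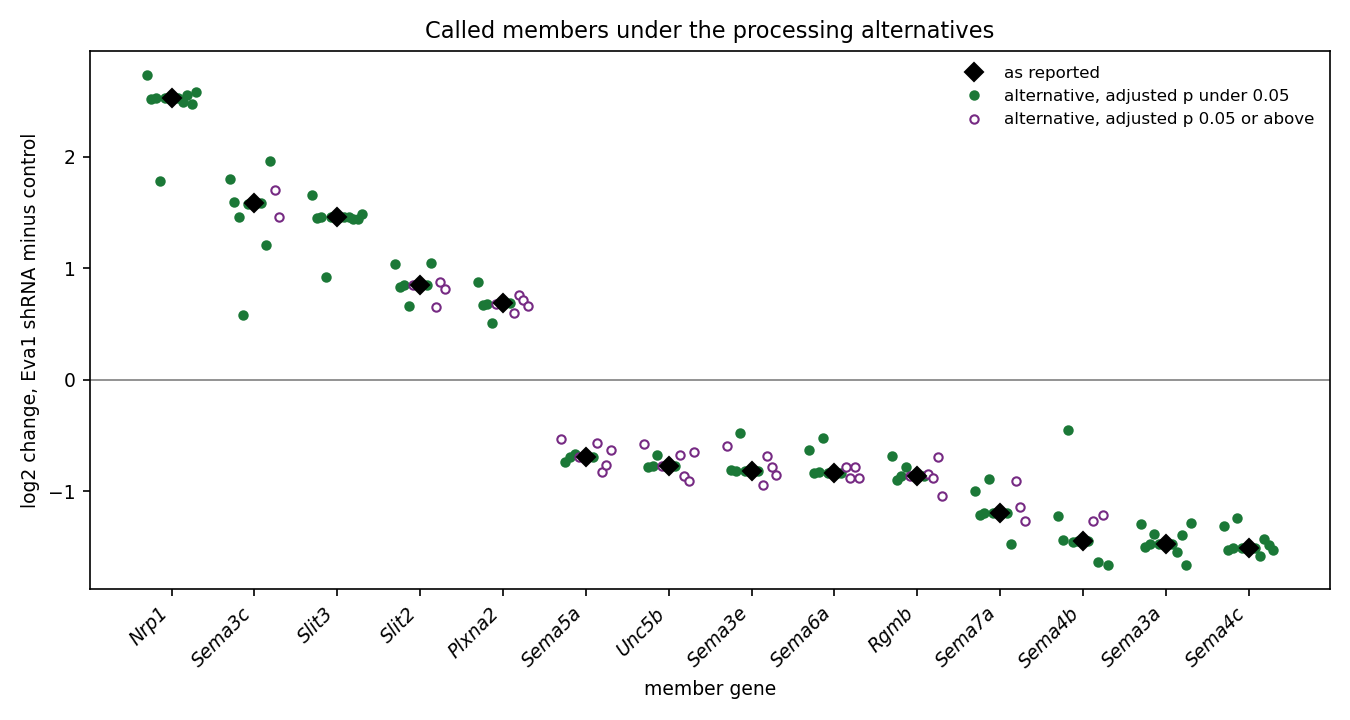
Log2 change (Eva1 shRNA minus control) of the 14 called genes as reported (diamonds) and under each of 12 processing alternatives (circles, 11 for Sema4b), filled where the adjusted p was under 0.05 and open otherwise. Nrp1, Slit3, Sema3a and Sema4c have filled circles throughout, and no circle crosses 0.

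The promoters of these 4 genes are shown because they are the ones whose change held under every alternative, with 2 rising and 2 falling. The sequences are from RefSeq (mouse build GRCm38.p6), run 5′ to 3′ on the strand of the gene from 250 bases before the annotated start to 50 bases after it, and capitals mark each GC box, searched as GGGCGG on both strands. Nrp1 lies at chr8:128358823-128359122 (+ strand), Slit3 at chr11:35121206-35121505 (+ strand), Sema3a at chr5:13396534-13396833 (+ strand) and Sema4c at chr1:36558332-36558631 (- strand, the first of 2 starts listed).
Nrp1: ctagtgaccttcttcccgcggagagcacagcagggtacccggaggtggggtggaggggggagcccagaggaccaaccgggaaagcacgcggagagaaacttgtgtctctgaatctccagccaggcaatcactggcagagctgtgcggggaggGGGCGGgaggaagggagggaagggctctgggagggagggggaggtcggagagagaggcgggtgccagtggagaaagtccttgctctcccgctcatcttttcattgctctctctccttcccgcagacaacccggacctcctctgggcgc
Slit3: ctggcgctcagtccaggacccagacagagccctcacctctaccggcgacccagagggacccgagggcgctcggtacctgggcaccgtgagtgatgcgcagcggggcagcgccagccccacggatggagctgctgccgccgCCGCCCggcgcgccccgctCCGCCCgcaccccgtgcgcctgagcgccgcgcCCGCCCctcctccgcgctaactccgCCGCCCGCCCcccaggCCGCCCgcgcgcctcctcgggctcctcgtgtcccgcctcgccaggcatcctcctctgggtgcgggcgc
Sema3a: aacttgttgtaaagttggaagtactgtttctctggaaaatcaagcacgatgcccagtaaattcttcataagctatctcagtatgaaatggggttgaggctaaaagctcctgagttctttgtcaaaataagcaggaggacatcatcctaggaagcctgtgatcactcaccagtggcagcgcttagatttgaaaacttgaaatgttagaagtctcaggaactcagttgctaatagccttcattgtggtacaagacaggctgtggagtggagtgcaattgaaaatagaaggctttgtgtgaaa
Sema4c: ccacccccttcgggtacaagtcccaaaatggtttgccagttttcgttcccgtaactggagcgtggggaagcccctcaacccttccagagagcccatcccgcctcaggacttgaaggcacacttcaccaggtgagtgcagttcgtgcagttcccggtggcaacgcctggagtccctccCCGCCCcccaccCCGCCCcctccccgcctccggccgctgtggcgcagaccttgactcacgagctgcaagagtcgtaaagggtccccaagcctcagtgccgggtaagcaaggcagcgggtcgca

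The 4 promoters differed in base composition. GC content was 64.0% for Nrp1, 78.3% for Slit3, 41.3% for Sema3a and 64.3% for Sema4c, against a median of 52.7% over the promoters of 27025 genes. CpG dinucleotides numbered 14, 41, 2 and 19 in the same order, against a median of 7. Of the 47 guidance genes 38 had a promoter in the table, with a median GC content of 65.0% and a median of 21 CpG dinucleotides.

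GC boxes were found in the promoters of Nrp1 (1), Slit3 (6, of which a pair overlap) and Sema4c (2) and not in that of Sema3a. They were present in 35.9% of all promoters and in 27 of the 38 guidance gene promoters (71.1%), among them 11 of the 13 called genes with a promoter. The core of the hypoxia response element, searched as ACGTG on both strands, was in none of the 4 windows, in 8 of the 38 (21.1%) and in 19.7% of all promoters. The 8 included 4 of the 13 called genes with a promoter, Rgmb, Sema3c, Sema3e and Sema4b. A GC box holds G and C alone, and the guidance gene promoters had the higher GC content given above.

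Other genes of the same pathways were taken from a list of 105 coreceptors, further ligands and signalling proteins. Of these, 96 had a probe and 88 probes were tested, of which 3 rose (3.41%) and 17 fell (19.3%). The 20 calls were 22.7% of the list, close to the 21.5% of all probes. Under the authors' scaling 7 were higher and 13 lower, where all probes gave 3212 higher and 1426 lower. The median log2 change of the list was -0.13. Vegfa, Pgf, Vegfc, Flt4, Kdr, Neo1, Itgb1, Met, Sdc1, Sdc2, Sdc4, Dpysl2 to Dpysl5, Crmp1, Evl, Enah, Vasp, Limk2 and Srgap3 are named from the list after their values were seen. The other 10 genes named are those with the smallest p.

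Ligands and receptors of the VEGF family share Nrp1 with the semaphorins, and Flt1, Vegfa and Pgf fell. Vegfc and Flt4 did not pass, with log2 changes of 0.25 and 0.42. Flt1, a VEGF receptor, had 147.9 and 147.5 units in Eva1 shRNA cells, against 542.1 and 545.6 units in control cells, with a log2 change of -2.05 (SE 0.14, adjusted p = 0.00207). Vegfa had 45.7 and 60.4 units in Eva1 shRNA cells and 95.7 and 97.2 units in control cells (log2 change -1.06, SE 0.20, adjusted p = 0.0234). Pgf had 61.0 and 74.6 units in Eva1 shRNA cells and 100.9 and 93.8 units in control cells, and its log2 change of -0.72 (SE 0.18, adjusted p = 0.0458) was not called under the authors' scaling or with any 1 array left out. Kdr, the other VEGF receptor that pairs with Nrp1, overlapped between groups and had a log2 change of 0.14 (adjusted p = 0.775). Vegfa was not called when either control array or Eva1 shRNA array 1 was left out, with an adjusted p of up to 0.103.

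Among coreceptors and binding partners, 3 of 29 tested fell in limma's test (10.3%, against 10.9% of all probes) and 0 rose (against 10.6%). At an unadjusted p under 0.05 in the same test, 2 were higher and 7 lower. No share of all probes is given at that threshold, so these counts cannot be read as particular to the coreceptors. Beside Flt1 the genes that fell were 2 of the 4 syndecans, heparan sulphate proteoglycans of the kind that bind slits. The other syndecans, Sdc2 and Sdc4, did not pass, with log2 changes of 0.04 (adjusted p = 0.856) and -0.12 (adjusted p = 0.641). Sdc3 had 8.62 and 8.97 units in Eva1 shRNA cells and 15.8 and 15.99 units in control cells. Its log2 change was -1.08 (SE 0.15, adjusted p = 0.00936), or -0.46 with 16 units added. The call of Sdc3 was lost when either Eva1 shRNA array was left out. Sdc1 had 39.0 and 12.6 units in Eva1 shRNA cells and 104.9 and 105.8 units in control cells, and its log2 change of -2.45 had a standard error of 0.50 (adjusted p = 0.0268). The 2 Eva1 shRNA arrays differed widely for it, and its call was lost when either control array was left out. Neo1, the receptor of Rgmb, had 63.3 and 70.4 units in Eva1 shRNA cells and 116.8 and 86.6 units in control cells (log2 change -0.78, adjusted p = 0.0534). Itgb1, the integrin chain that binds Sema7a, had a log2 change of -0.84 (adjusted p = 0.0639). Met, which associates with class B plexins, had a log2 change of 0.65 (adjusted p = 0.0534).

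Signalling proteins downstream of the receptors gave 3 rises (5.66%, against 10.6% of all probes) and 12 falls (22.6%, against 10.9%) among 53 tested. The 3 Mical genes, which encode actin-oxidising enzymes that act downstream of class A plexins, all fell. Mical1 had 5.86 and 8.37 units in Eva1 shRNA cells and 19.3 and 26.0 units in control cells, with a log2 change of -1.90 (SE 0.25, adjusted p = 0.00881), or -0.83 with 16 units added. Mical2 (10.3 and 11.0 units in Eva1 shRNA cells, 18.0 and 17.6 units in control cells) had a log2 change of -0.95 (adjusted p = 0.0143), or -0.44 with 16 units added. Mical3 (23.7 and 23.4 units in Eva1 shRNA cells, 50.1 and 39.1 units in control cells) had a log2 change of -1.11 (adjusted p = 0.0165). The call of Mical1 held with any 1 array removed, while the adjusted p of Mical2 and of Mical3 reached 0.0955 without Eva1 shRNA array 1.

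Limk1, a kinase that inactivates cofilin, had a log2 change of -1.13 (SE 0.16, adjusted p = 0.0102), while its relative Limk2 did not pass (-0.30, adjusted p = 0.261). Cdk5, a kinase in semaphorin 3A signalling, changed by -1.03 (adjusted p = 0.0152). Srgap2, a GTPase-activating protein of the family that binds Robo receptors, changed by -0.80 (adjusted p = 0.0204), while Srgap3 did not pass (-0.21, adjusted p = 0.349). Maged1, which binds UNC5 receptors, changed by -1.08 (adjusted p = 0.0095). Among these 4 genes the highest adjusted p with 1 array left out was 0.0728 for Limk1, 0.0955 for Cdk5, 0.124 for Srgap2 and 0.0729 for Maged1, each without Eva1 shRNA array 1.

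The 3 signalling genes that rose were Arhgap35, Dpysl3 and Evl. Arhgap35 had 456.6 and 402.6 units in Eva1 shRNA cells, against 171.4 and 163.3 units in control cells, with a log2 change of 1.18 (SE 0.15, adjusted p = 0.00745). Dpysl3, of the collapsin response mediator family, rose by 0.75 and Evl, an actin-binding relative of Enah, by 0.70 on the log2 scale. Relatives of both fell, Crmp1 by 1.20 (SE 0.26, adjusted p = 0.0325) and Enah by 1.20 (SE 0.25, adjusted p = 0.0274). Dpysl2, Dpysl4 and Dpysl5 did not pass, nor did Vasp, another relative of Evl (log2 change -0.13, adjusted p = 0.627). Enah was dim, with 7.66 and 11.3 units in Eva1 shRNA cells and 17.6 and 19.3 units in control cells. Crmp1 and Enah were not followed under the processing alternatives. Without Eva1 shRNA array 1 the adjusted p was 0.0617 for Arhgap35 and 0.141 for Dpysl3, and without Eva1 shRNA array 2 it was 0.168 for Evl.

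**Figure D5:**
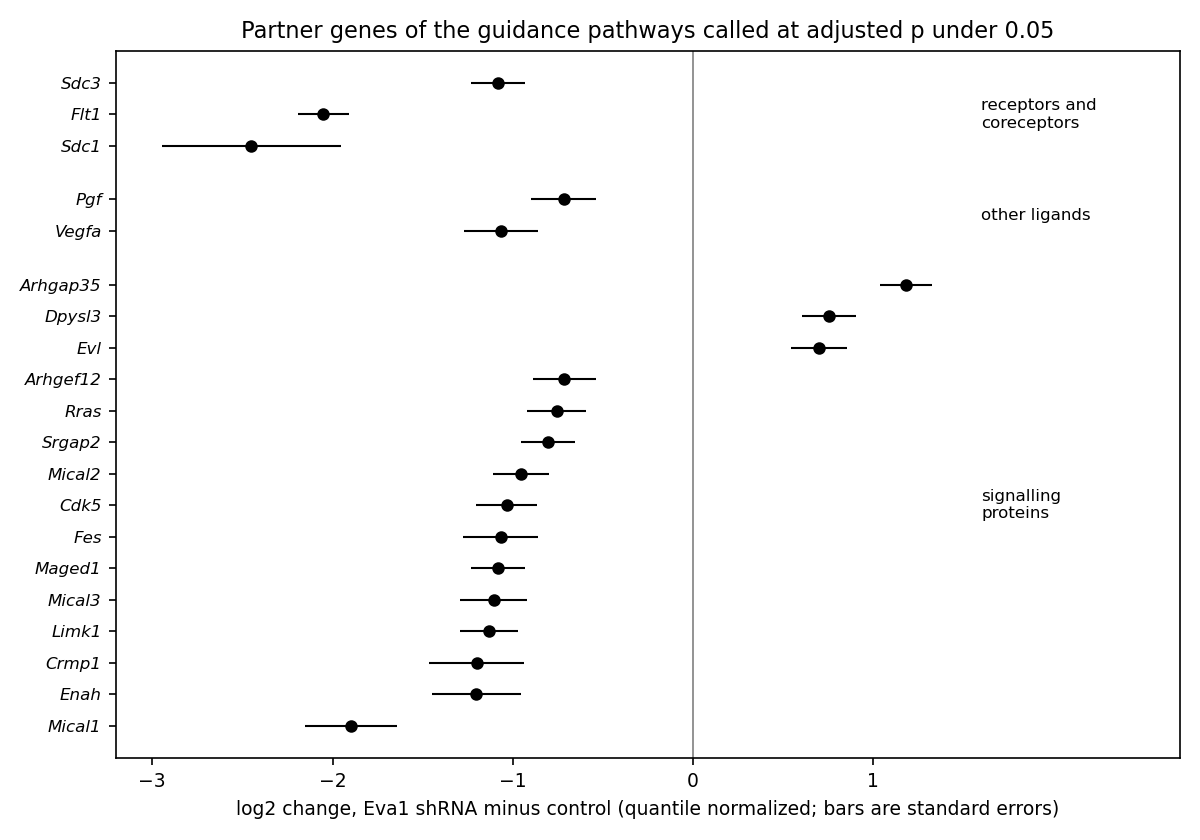
Log2 change (Eva1 shRNA minus control, quantile normalized) with limma's standard errors for the 20 called genes of the 88 tested probes on the list of coreceptors, other ligands and signalling proteins. The 17 genes left of 0 were lower in the Eva1 shRNA cells, led by Sdc1 and Flt1, and Arhgap35, Dpysl3 and Evl were higher.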

How the data were processed

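Messenger RNA was measured on 4 arrays, 2 of NSCL61 cells with the Eva1 shRNA and 2 of control cells, grouped by sample title. Per the labels, Cy5-labelled amplified RNA was hybridised in a single colour to TORAY 3D-Gene mouse chips. The deposited intensity values are linear and had been scaled by the authors, as the values themselves show, to a median near 25 on each array. Cells marked as null were treated as blank. Not given in the sources used here are scanner, background correction and blanking rule, and the number of arrays limits the precision.

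The platform annotation gave 1 symbol for 16631 of the 23473 probes and none for 6842. Symbols were updated for the partner and marker lists through a RefSeq table of GRCm38.p6 (12622 current, 3947 updated, 62 kept without a single match). Log2 intensities of the 19199 probes with 4 values were quantile normalized, because array medians over these probes differed by 0.274 (log2), and compared with lmFit and eBayes without trend (limma 3.58.1, R 4.3.3), two-sided, with Benjamini-Hochberg adjustment and 2 residual degrees of freedom. Of the 47 guidance genes, 40 were tested and 7 were blank on 1 to 3 arrays and got no fold change. The code was tested on simulated data of the same size.

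The guidance genes, the lists and the rule for named genes (every called gene, every gene with a log2 change of at least 1 in size, genes with blank cells, and the 10 called partner genes with the smallest p) were chosen with earlier results of these data known. The alternatives tried were to keep the authors' scaling, to centre on medians instead, to drop the dimmest 25% of probes, to add 16 intensity units, to set blank cells to their array's lowest value, to block on the replicate number, to fit eBayes with trend, to test 1 probe per gene symbol, to call at 0.1, and to remove each array in turn. Promoters were read from RefSeq by symbol, the first listed per gene. Plots were made in matplotlib 3.10.9 (Python 3.11.15).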

Additional observations from a re-analysis of the deposited data

How the results depend on the processing

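With 2 arrays a group, 1 array decides many calls. With 1 array left out, where the lone array of a group is assumed to vary like the other group, the guidance genes called numbered 2 to 4 higher and 3 to 4 lower, the partner genes 0 to 3 higher and 3 to 9 lower, and all probes 428 to 1343 higher and 583 to 1148 lower. The median log2 change of the guidance genes ran from -0.32 to -0.21 in those fits. Under the authors' scaling that median was -0.059. There 7 partner genes were called higher and 13 lower, against 3212 and 1426 of all probes. With 16 intensity units added the median was -0.10. There 6 guidance genes were called higher and 14 lower, 8 partner genes higher and 22 lower, and 3155 probes higher and 2990 lower. With eBayes trend 6 guidance genes were higher and 15 lower, 7 partner genes higher and 23 lower, and 3172 probes higher and 3020 lower. Filling blank cells left 3 guidance genes higher and 6 lower, 2 partner genes higher and 11 lower, and 1402 probes higher and 1462 lower. Without the dimmest 25% of probes, 6 partner genes were higher and 23 lower, against 2897 and 2746 of all probes. The partner counts were 5 and 19 with 1 probe per gene symbol (all probes 1720 and 1856). At a threshold of 0.1 they were 6 and 23 (all probes 3103 and 3033). The replicate number as a block gave 4 higher and 8 lower guidance genes, with Plxna2 (adjusted p = 0.0542) and Sema5a (0.0523) losing their call, but the same-numbered arrays had deviations correlated at r = -0.0093 and nothing in the labels pairs them. The cause of these differences was not tested.

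No called gene changed direction. Genes that did not pass and changed sign were, under the authors' scaling, Ntn4 (0.023), Slit1 (0.012), Unc5a (0.12), Plxna4 (0.081), Plxnb2 (0.17) and Sema6b (0.045). With 1 array left out, the log2 change ran from -0.40 to 0.011 for Ntn4, from -0.17 to 0.0036 for Unc5a, from -0.18 to 0.18 for Plxnb2 and from -0.53 to 0.18 for Sema6b. It ran from -0.25 to 0.54 for Sema3d, from -0.25 to 0.32 for Sema3f, from -0.11 to 0.62 for Unc5c and from -0.24 to 0.51 for Kdr. Of the 14 called genes, 6 had a dimmer group with a mean under the array median of 25, and no share of all probes is given for this. How far dim signal enters their fold changes was not tested.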
